A study of Mus musculus with 2 samples.

Results

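The 6 genes encoding alpha-tubulin isotypes described here were measured in P9 mouse testes, in 1 control library and 1 library from mice lacking *Bcas2* in germ cells. The members were *Tuba1a*, *Tuba1b*, *Tuba1c*, *Tuba3a*, *Tuba3b* and *Tuba4a*, 6 of 39695 gene entries measured, taken by gene symbol. They were selected on measured values of the same contrast reported here, so their levels and ratios below are a description and not a test. BCAS2 is a component of the spliceosome. Control mice were Bcas2F/- males, carrying 1 floxed and 1 deleted allele without Cre, and Bcas2F/-;Vasa-Cre mice carried the same alleles with Cre driven by the germ cell promoter of *Vasa*. All mice were 9 days old. Their strain is labelled C57BL/6, while the study's methods describe a background mixed with another strain. How many mice went into each library is not stated in the sources used here. RNA came from whole testes, so germ cells and somatic cells were measured together, and fewer cells of a type and less RNA per cell cannot be told apart. With 1 library per genotype there was no replicate check, and no spread between mice could be estimated.

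Alpha-tubulin and beta-tubulin form the dimer from which microtubules are built. In the testis, microtubules make the mitotic and meiotic spindles of germ cells, the manchette and tail of spermatids, and the columnar skeleton of Sertoli cells. *Tuba1a*, *Tuba1b* and *Tuba1c* are used in many tissues, *Tuba3a* and *Tuba3b* are known for their expression in testis, and *Tuba4a* encodes an isotype that lacks the final tyrosine of the other 5 members. That tyrosine is removed from assembled microtubules by vasohibins and put back on free tubulin by the ligase TTL, and the acidic tail before it is the site of glutamylation.

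The end of the coding sequence is shown for the 3 members that were lower in the Bcas2F/-;Vasa-Cre library, because it is the same in the *Tuba3* pair and separates *Tuba4a* from it at this tail. The lines give the last 60 coding bases before the stop codon, 5′ to 3′, from GENCODE M21 transcripts, with the last codon in capitals.
Tuba3a: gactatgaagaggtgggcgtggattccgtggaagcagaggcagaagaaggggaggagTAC
Tuba3b: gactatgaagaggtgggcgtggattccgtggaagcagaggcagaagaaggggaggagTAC
Tuba4a: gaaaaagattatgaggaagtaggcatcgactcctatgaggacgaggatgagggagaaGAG
TAC is a tyrosine codon and GAG is a glutamate codon. *Tuba3a* and *Tuba3b* had the same 60 bases, and over their whole coding sequences they matched at 97.0% of bases and differed at 0 of 450 residues. Both genes therefore specify 1 protein. *Tuba1a* and *Tuba1b* matched at 98.3% of coding bases and differed at 2 residues, and *Tuba1a* and *Tuba1c* matched at 97.1% and differed at 8. *Tuba3a* differed from *Tuba1a* at 11 residues, with 83.4% of coding bases in common. *Tuba4a* differed from *Tuba1a* at 19 residues and from *Tuba3a* at 26.

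On GRCm38, the build named mm10 in the submitters' processing notes, the *Tuba1* genes lay together on chromosome 15. *Tuba1b* covered chr15:98931425-98934565 and *Tuba1a* chr15:98949837-98953703, both on the minus strand. *Tuba1c* covered chr15:99029891-99038110 on the plus strand. *Tuba3a* at chr6:125278274-125286042, minus strand, and *Tuba3b* at chr6:145615757-145621479, plus strand, shared chromosome 6 without being neighbours. *Tuba4a* lay at chr1:75214228-75219865 on the minus strand. The main transcripts had 5 exons in both *Tuba3* genes and 4 exons in the other members.

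The targeted gene was read first. *Bcas2* was at 39.5 RPKM in the control library and 25.7 RPKM in the Bcas2F/-;Vasa-Cre library, a log2 ratio of -0.60. RPKM is the number of reads per kilobase of gene, scaled to a total of reads for the library. It allows levels of different genes to be compared only as far as the gene lengths used are right. Unless stated otherwise, log2 ratios are those of RPKM + 1 in Bcas2F/-;Vasa-Cre over control testes, and differences of more than 1.5-fold are counted on that scale. The number of reads behind each RPKM was worked out as a whole number, giving totals of 19918750 in the control and 19331687 in the Bcas2F/-;Vasa-Cre library. These totals are smaller than the numbers of mapped reads that the paper reports, and how they were counted is not stated in the sources used here. The intervals given are 95% exact binomial (Clopper-Pearson) intervals of the ratio of RPKM without a pseudocount. They cover counting error only, and PCR copies of a molecule were not told apart.

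The 3 *Tuba1* genes had nearly the same level in both libraries. *Tuba1a*, the main alpha-tubulin of developing neurons and a broadly expressed isotype, was at 387.6 RPKM in the control and 392.1 RPKM in the Bcas2F/-;Vasa-Cre library, a log2 ratio of 0.02 (interval -0.01 to 0.05). *Tuba1b*, an isotype common to dividing cells, was at 389.0 and 397.0 RPKM, a log2 ratio of 0.03 (interval -0.01 to 0.07). Among all 39695 entries ordered by RPKM, these genes held ranks 191 and 190 in the control and 183 and 178 in the Bcas2F/-;Vasa-Cre library. *Tuba1c*, a close relative of both, was far lower, at 49.5 and 52.1 RPKM, with a log2 ratio of 0.07 (interval -0.03 to 0.18). All 3 intervals reached both sides of 0.

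Both *Tuba3* genes were lower in the Bcas2F/-;Vasa-Cre library. *Tuba3a* was at 237 RPKM in the control and 132 RPKM in the Bcas2F/-;Vasa-Cre library, from 7130 and 3844 reads. Its log2 ratio was -0.84 (interval -0.91 to -0.79), a change in RPKM of -44.4%. *Tuba3b* was at 136 and 83.1 RPKM, from 4824 and 2851 reads, with a log2 ratio of -0.71 (interval -0.78 to -0.65), a change in RPKM of -39.1%. Neither interval reached 0. In the order of all entries, *Tuba3a* stood at rank 342 in the control and 777 in the Bcas2F/-;Vasa-Cre library, and *Tuba3b* at 754 and 1446. The ratios of these copies were close to each other, and their difference in log2 RPKM ratio was -0.13 (counting interval -0.22 to -0.04), with *Tuba3a* the lower. *Tuba3a* was 1.74 times *Tuba3b* in RPKM in the control and 1.59 times in the Bcas2F/-;Vasa-Cre library.

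*Tuba4a* was the scarcest member, with 5.72 RPKM from 117 reads in the control and 3.48 RPKM from 69 reads in the Bcas2F/-;Vasa-Cre library. Its log2 ratio was -0.586, just past 1.5-fold, which is 0.585 on this scale, and without a pseudocount it was -0.72 with a wide interval of -1.17 to -0.28. The interval held 1.5-fold inside it. The length recovered for *Tuba4a* was 1026.5 bases against an annotated mean of 1165.6. A larger multiple of its reads would fit a longer length, only somewhat further from the annotation. Its numbers of reads and the width of its interval are therefore not sure. The exons of *Tuba4a* overlapped those of *Stk16*, a kinase gene on the opposite strand, which was at 52.3 and 54.5 RPKM. The strand setting of the read counting is not given in the sources used here, so reads of *Tuba4a* and *Stk16* cannot be told apart in the overlap.

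**Figure D1:**
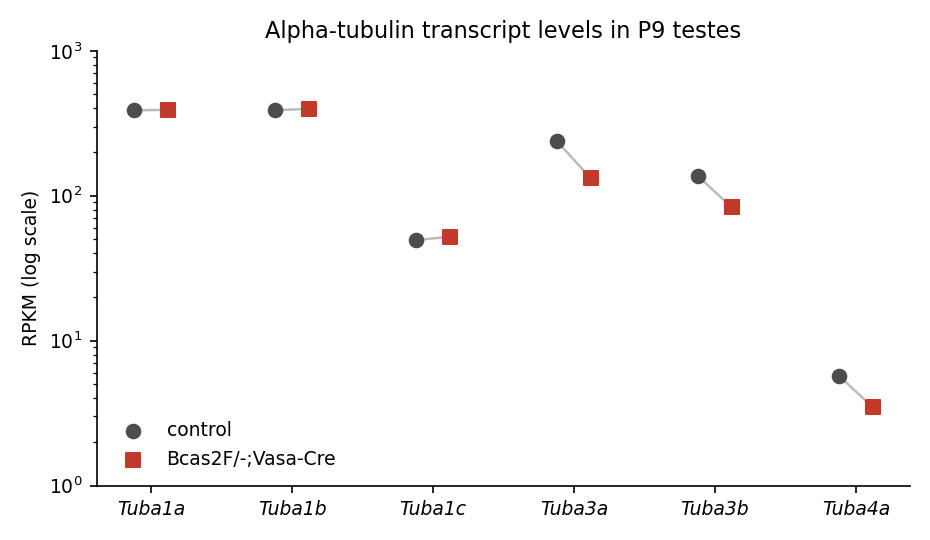
RPKM of each alpha-tubulin gene on a log axis, with a grey line joining the control library (circles) to the Bcas2F/-;Vasa-Cre library (squares), 1 library per genotype. The *Tuba1* genes run flat, *Tuba3a* goes from 237 to 132 and *Tuba3b* from 136 to 83.1, and *Tuba4a* lies far below the others.

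The remaining alpha-tubulin genes were close to absent. *Tuba8* had 2 reads in the control and 3 in the Bcas2F/-;Vasa-Cre library, and *Tubal3* had 0 and 1. Both were below a mean of 1 RPKM over the libraries and entered no count. The highest member was 68.0 times the lowest in the control and 114 times in the Bcas2F/-;Vasa-Cre library.

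Across the 14831 genes whose RPKM averaged 1 or more, a level more than 1.5-fold lower in the Bcas2F/-;Vasa-Cre library was found in 1.69% and one more than 1.5-fold higher in 1.57%. Of the 6 members, 3 were more than 1.5-fold lower, *Tuba4a* by the narrowest margin, and 0 were higher. Among the 2661 genes that averaged 50 RPKM or more, where ratios spread less (SD 0.155 on the log2 scale), 0.451% were lower and 0.188% higher by that fold. Of the 6 members, 5 passed that level, *Tuba1c* just so with a mean of 50.8 RPKM, and 2 of them, the *Tuba3* genes, were lower. *Tuba3a* had the lowest log2 ratio of these 2661 genes and *Tuba3b* held place 5 from the bottom. Since the members were chosen from this contrast, nothing is read from these counts.

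**Figure D2:**
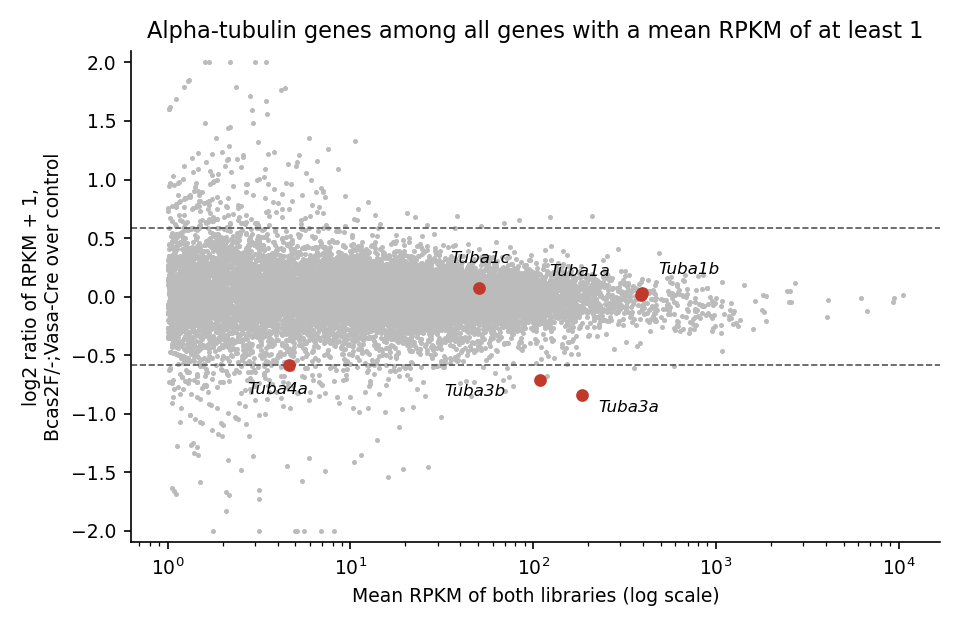
Log2 ratio of RPKM + 1 (Bcas2F/-;Vasa-Cre over control) against mean RPKM on a log axis for the 14831 genes averaging 1 RPKM or more (grey), ratios beyond the axis drawn at its ends, with the 6 alpha-tubulin genes in red. Dashed lines mark 1.5-fold; *Tuba3a* and *Tuba3b* lie below the grey cloud at their level, while the *Tuba1* genes lie within it.

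The genes most like the *Tuba3* pair were taken as those averaging 50 RPKM or more that were more than 1.5-fold lower. There were 12, with log2 ratios from -0.84 to -0.59, the pair included. The others were *Gsta2*, *Tsc22d3*, *Dctpp1*, *Hist1h2ap*, *Alad*, *Crabp1*, *Stra8*, *Tubb4b*, *Mov10l1* and *Rpl35a*. Of these, only *Stra8* and *Mov10l1* were in the cell type lists read below. *Rpl35a*, the most abundant of the set, was at 712 and 472 RPKM. *Stra8*, required for entry into meiosis, was at 87.2 and 56.8 RPKM. *Mov10l1*, an RNA helicase of the piRNA pathway in germ cells, was at 64.0 and 41.9 RPKM. *Tubb4b*, a beta-tubulin used in axonemes, was the only other tubulin among them. Likeness here is that of 1 ratio over 2 libraries.

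The make-up of the alpha-tubulin transcripts differed between the libraries. In the control, the *Tuba3* pair held 31.0% of the RPKM summed over the 6 members, and in the Bcas2F/-;Vasa-Cre library 20.3%. *Tuba3a* alone went from 19.7% to 12.4% and *Tuba3b* from 11.3% to 7.84%. *Tuba1a* held 32.2% and 37.0%, *Tuba1b* 32.3% and 37.5%, *Tuba1c* 4.10% and 4.92%, and *Tuba4a* 0.475% and 0.328%. The *Tuba1* genes thus took 68.5% of the sum in the control and 79.4% in the Bcas2F/-;Vasa-Cre library, with levels of their own that were 1.83% apart. Counted in reads, the pair held 30.9% (interval 30.5 to 31.4) of member reads in the control. In the Bcas2F/-;Vasa-Cre library it held 20.3% (interval 19.9 to 20.7), and these intervals did not meet. Member reads include those of *Tuba1a*, whose number is not sure, and the intervals leave that doubt out. For each RPKM of the *Tuba1* genes there was 0.452 RPKM of the *Tuba3* pair in the control and 0.255 RPKM in the Bcas2F/-;Vasa-Cre library.

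The order of *Tuba1a* and *Tuba1b* depended on the gene length used and on the number of reads recovered for *Tuba1a*. The deposited values fit a length of 1135 bases for *Tuba1b*, close to the mean of its 2 annotated transcripts (1134.5 bases), of which the coding one has 1743 bases. For *Tuba1a* the recovered length was 2116 bases against 1803 annotated, the nearest that whole reads allowed. A smaller multiple of its reads would fit a shorter length, further from the annotation, so its number of reads is not sure. *Tuba3a* (1509 bases) and *Tuba3b* (1775 bases) met the annotation exactly. In RPKM, *Tuba1a* was 0.996 times *Tuba1b* in the control. With reads at the multiple taken divided by full transcript length, *Tuba1a* was 1.80 times *Tuba1b* in the control. The shares in the control became 40.6% for *Tuba1a*, 22.6% for *Tuba1b*, 21.2% for *Tuba3a* and 12.2% for *Tuba3b*. With the smaller multiple, *Tuba1a* would fall below *Tuba1b* on this scale, and the shares of all members would change. On this scale, at the multiple taken, the *Tuba3* pair went from 33.3% to 22.1%, a change close to that in RPKM. The levels of each gene relative to itself are the same on both scales.

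**Figure D3:**
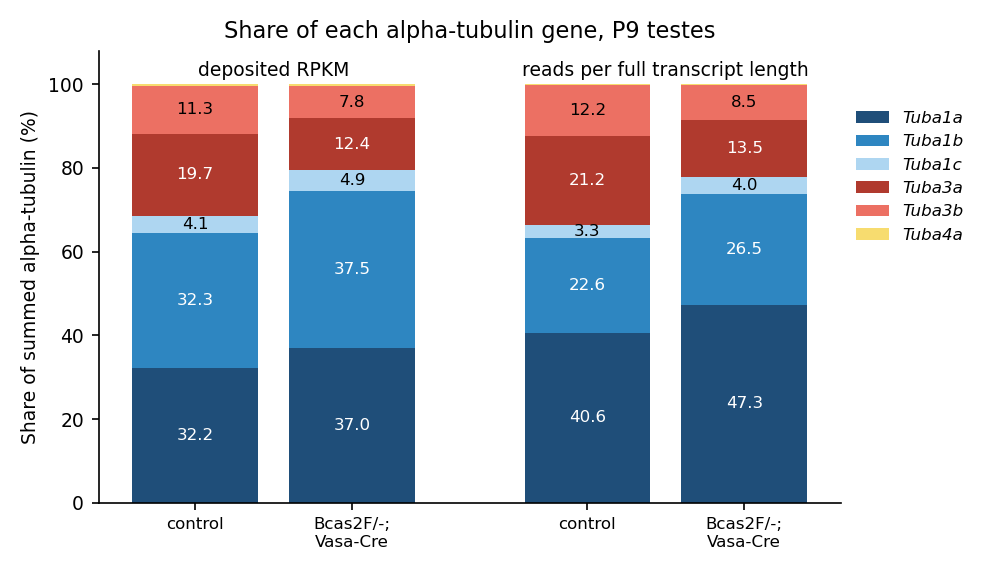
Stacked bars of the share of each gene (%) in the summed level of the 6 alpha-tubulin genes, in the control and the Bcas2F/-;Vasa-Cre library, from the deposited RPKM (left) and from reads per full transcript length (right). The red *Tuba3* segments shrink from 31.0% to 20.3% on the left and from 33.3% to 22.1% on the right. The boundary between *Tuba1a* and *Tuba1b* moves with the length used, and the bars on the right rest on the multiple taken for the *Tuba1a* reads.

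Summed alpha-tubulin was 1205.5 RPKM in the control and 1059.5 RPKM in the Bcas2F/-;Vasa-Cre library, a change of -12.1%. The *Tuba3* pair went from 373.7 to 214.9 RPKM, a change of -42.5%. Without the pair, the other 4 members summed to 831.8 and 844.7 RPKM, 1.54% higher. The pair differed by -159 RPKM between the libraries, and among the other members the difference furthest from 0 was that of *Tuba1b*, at 7.94 RPKM.

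Beta-tubulin, the partner in the dimer, had a sum of 1225.2 RPKM in the control and 1078.6 RPKM in the Bcas2F/-;Vasa-Cre library. The ratio of summed alpha- to summed beta-tubulin RPKM was 0.984 in the control and 0.982 in the Bcas2F/-;Vasa-Cre library. This ratio rests on the gene lengths behind the RPKM. *Tubb4b* alone was at 432 and 283 RPKM, a log2 ratio of -0.61 (interval -0.66 to -0.57). The other 7 beta-tubulin genes summed to 793.2 and 795.8 RPKM. Of the 6 beta-tubulin genes with a mean of at least 1 RPKM, 1 was more than 1.5-fold lower and 0 were higher. Over all 14831 genes tested these shares were 1.69% and 1.57%. The 5 beta-tubulin genes besides *Tubb4b* had log2 ratios from -0.07 to 0.22. Highest of these was *Tubb3*, the neuronal isotype, at 47.7 and 55.5 RPKM. *Tubb5*, the most abundant beta-tubulin here, was at 687 and 684 RPKM.

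**Figure D4:**
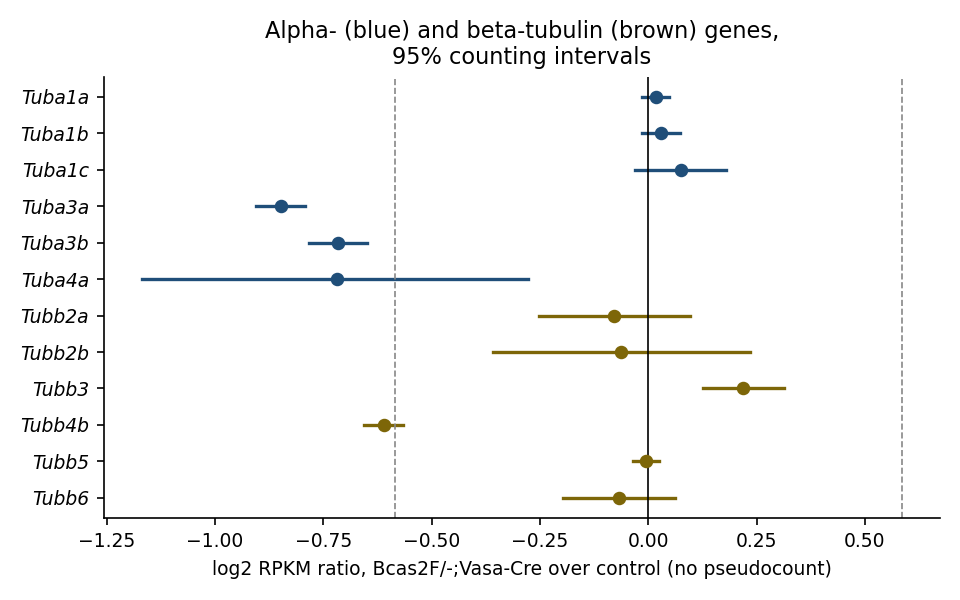
Log2 ratio of RPKM without a pseudocount, Bcas2F/-;Vasa-Cre over control, for the 6 alpha-tubulin genes (blue) and the 6 beta-tubulin genes with a mean of at least 1 RPKM (brown), with bars for 95% counting intervals and dashed lines at 1.5-fold. *Tuba3a*, *Tuba3b*, *Tuba4a* and *Tubb4b* lie left of 0 with their whole intervals, and the bar of *Tuba4a* is the widest.

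Genes that act on tubulin were examined as lists. Over all 14831 genes tested, 1.69% were more than 1.5-fold lower and 1.57% higher, so 0 in a short list is near that share. Of 21 genes that fold tubulin (the chaperonin CCT, prefoldin and the tubulin cofactors), 0 were more than 1.5-fold lower or higher. The median log2 ratio was -0.10 beside 0.02 over all genes tested, and 16 of 21 were below 0, beside 6873 of 14831. *Cct8*, a chaperonin subunit, was at 484 and 461 RPKM. *Tbce*, the cofactor that binds alpha-tubulin, was at 49.9 and 44.1 RPKM, and *Tbcb*, its partner, at 117 and 99.1 RPKM.

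A list of 28 genes covered the modification of tubulin tails, not only that of alpha-tubulin, and of the acetylated lysine of alpha-tubulin. Of these, 23 had a mean of at least 1 RPKM and 0 of the 23 were past 1.5-fold in either direction. The median log2 ratio was -0.03. *Ttl*, the ligase that adds the final tyrosine, was at 10.1 and 10.3 RPKM. *Svbp*, the partner of the vasohibins that remove it, was at 49.9 and 39.1 RPKM, a log2 ratio of -0.34. *Atat1*, the alpha-tubulin acetyltransferase, was at 19.3 and 21.5 RPKM and *Hdac6*, a deacetylase, at 138 and 135 RPKM.

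Tubulin messages are also degraded when free tubulin is in excess, through TTC5, SCAPER and the CCR4-NOT subunit CNOT11. *Ttc5* was at 36.3 and 37.9 RPKM, *Cnot11* at 17.7 and 17.1 RPKM and *Scaper* at 15.3 and 11.9 RPKM, so 0 of 3 were past 1.5-fold. Of 12 genes that sever microtubules or sequester tubulin, 9 had a mean of at least 1 RPKM and 0 of these were past 1.5-fold, with a median log2 ratio of -0.11. *Stmn1*, which binds free tubulin dimers, was at 322 and 235 RPKM, a log2 ratio of -0.45.

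Cell type markers differed between the libraries along with the *Tuba3* pair. Of 10 general germ cell genes, 2 (*Tdrd9* and *Mov10l1*) were more than 1.5-fold lower and 10 of 10 had log2 ratios below 0, beside 1.69% of all 14831 genes tested more than 1.5-fold lower and 6873 of them below 0. The list had a median of -0.37 and a sum of 658 RPKM in the control and 503 RPKM in the Bcas2F/-;Vasa-Cre library. Of 8 genes of undifferentiated spermatogonia 1 (*Sall4*) was lower, with a median of -0.18 and 6 of 8 below 0. *Nanos2*, at 1.01 and 1.83 RPKM, had a log2 ratio of 0.49 and *Id4* one of 0.10. Of 5 genes of differentiating spermatogonia 2 (*Stra8* and *Dmrtb1*) were lower, with a median of -0.46 and 4 of 5 below 0. The remaining gene was *Sohlh2* at 0.20. By real-time RT-PCR of P9 testes, the paper instead reports *Stra8*, *Kit*, *Sohlh1*, *Sohlh2* and *Dazl* as similar in both genotypes. It reports the genes of meiotic prophase I that it measured as lower. Meiotic genes stood lowest as a list. Of 11 with a mean of at least 1 RPKM, 3 (*Smc1b*, *Meioc* and *Tex11*) were lower, the median was -0.56, and the sum over the 12 listed was 233 and 157 RPKM. The meiotic genes ran from -1.11 (*Smc1b*) to -0.02. The log2 ratios of *Tuba3a* (-0.84) and *Tuba3b* (-0.71) lay in the lower part of that range. *Meioc* was at -0.95 and *Tex11* at -0.85, and *Dmrtb1*, of the differentiating list, was at -0.79. The range of the red cell list read below, -3.38 to 0.11, held both *Tuba3* values too.

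Markers of somatic and blood cells differed in both directions. All 7 Sertoli cell genes with a mean of at least 1 RPKM had log2 ratios above 0, beside 7958 of all 14831 genes tested. They ran from 0.004 to 0.36 with a median of 0.11, and 0 were past 1.5-fold. *Rhox5* was listed at 0 in both libraries. Of 6 Leydig cell genes 1 (*Cyp17a1*, a steroid hydroxylase, at 94.8 and 152 RPKM) was more than 1.5-fold higher, beside 1.57% of all genes tested. The median was 0.20, with 4 of 6 above 0. The 2 below 0 were *Hsd3b1*, at 189 and 168 RPKM, and *Cyp11a1*, at 70.7 and 67.1 RPKM. Medians were -0.05 for 5 peritubular myoid genes, -0.06 for 5 endothelial genes and -0.16 for 4 macrophage genes, with 0 past 1.5-fold. Of 5 red cell genes, 2 (*Hbb-bt* and *Slc4a1*) were lower, beside 1.69% of all genes tested, and the median was -0.38. *Slc4a1* had 373 reads in the control and 14 in the Bcas2F/-;Vasa-Cre library. The most abundant of the 5, *Hbb-bs*, was above 0, at 551 and 596 RPKM, and the other 4 were below 0. The list summed to 824 and 795 RPKM. Of 6 spermatid genes 1 had a mean of at least 1 RPKM, with *Prm1*, *Prm2* and *Acrv1* listed at 0 in 1 library each. The part of the germ cell and red cell differences in the lower *Tuba3* levels was not tested.

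**Figure D5:**
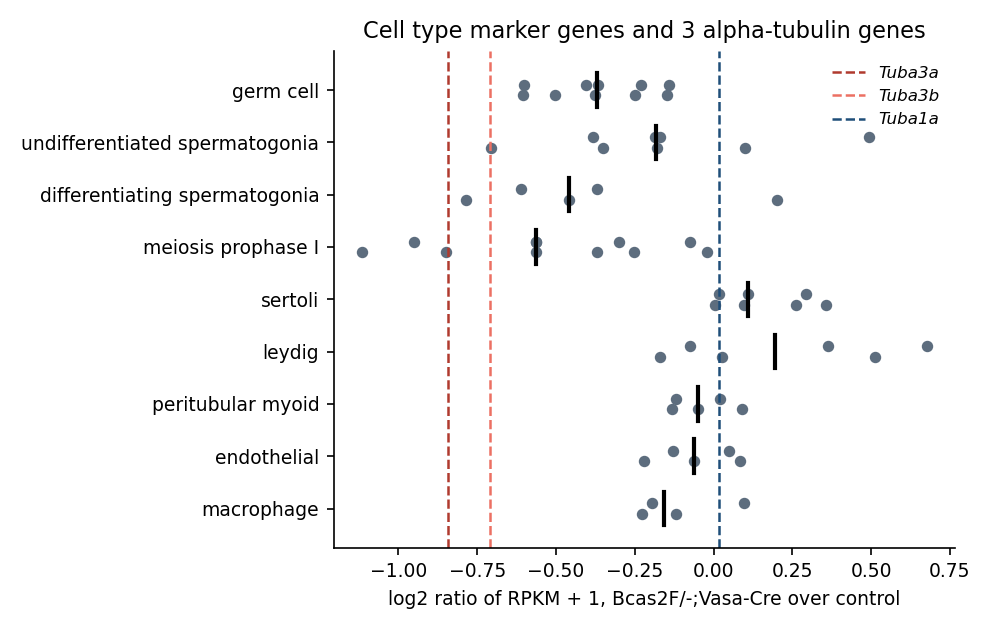
Log2 ratios of RPKM + 1 (Bcas2F/-;Vasa-Cre over control) of marker genes with a mean of at least 1 RPKM (points, staggered for visibility) and their medians (black bars) by cell type, with dashed lines at *Tuba3a*, *Tuba3b* and *Tuba1a*. Germ cell lists have medians from -0.56 to -0.18, and the somatic lists drawn have medians from -0.16 to 0.20. Red cell and spermatid genes are not drawn.

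How far reads can be assigned to single isotypes was measured on the transcripts. Of all 100-base windows of the *Tuba3a* transcript, 12.3% occurred also in transcripts of other genes, and of those of *Tuba3b* 11.8%, all of it in *Tuba3a* and most of it in *Tuba3b* shared between these copies. With 50-base windows the values were 35.3% and 29.5%. At 100 bases they were 65.8% for *Tuba1a*, 73.0% for *Tuba1b* and 53.4% for *Tuba1c*, which share sequence with each other. *Tuba4a* shared 46.7%, with the antisense gene *Stk16*. How reads matching several genes were counted is not given in the sources used here, so levels within the *Tuba1* group and, to a lesser degree, within the *Tuba3* pair are uncertain. Added together, *Tuba3a* and *Tuba3b* had a log2 ratio of -0.80, and *Tuba1a*, *Tuba1b* and *Tuba1c* one of 0.03. Of 23 other genes sharing 50-base windows with members, 10 were in the files. The highest processed pseudogene was *Gm14150* at 2.98 and 2.88 RPKM.

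The sequences before the starts of the *Tuba3* pair were compared because these genes had like ratios on distant parts of chromosome 6. Over the 250 bases before the RefSeq starts (GRCm38.p6), *Tuba3a* and *Tuba3b* matched at 61.3% of aligned bases, against 43.2% to 49.3% for the other pairs of members and *Tubb4b*. Gene starts differ between RefSeq and GENCODE M21, and of these 250 bases GENCODE places 206 inside the gene in *Tuba3b*, 202 in *Tuba1a*, 175 in *Tuba1b* and 250 in *Tuba4a*, against 0 in *Tuba3a*, *Tuba1c* and *Tubb4b*. The longest common run of the *Tuba3* pair was 33 bases, against 7 to 10 bases in the other pairs. It began at position -142 from the start of *Tuba3a* and at -129 from that of *Tuba3b*, inside the GENCODE gene in *Tuba3b*. The stretch of *Tuba3a* that holds it is shown, chr6:125286122-125286231 on the minus strand, with the common run and the CCAAT matches in capitals.
Tuba3a: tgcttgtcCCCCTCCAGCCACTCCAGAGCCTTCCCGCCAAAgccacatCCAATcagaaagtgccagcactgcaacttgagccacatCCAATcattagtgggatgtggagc
CCAAT, searched on both strands, is the core of the box bound by NF-Y. It had 3 matches in the 250 bases of *Tuba3a*, 2 in *Tuba3b* and 5 in *Tubb4b*, 1 each in *Tuba1a* and *Tuba1c*, and 0 in *Tuba1b* and *Tuba4a*. Among all 32851 RefSeq windows of this length, 33.8% held at least 1 match, 10.1% at least 2, 2.79% at least 3 and 0.213% at least 5. TATAAA and the cAMP element TGACGTCA had 0 matches in all 6 members. These matches describe letters in a window and not sites of binding.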

How the data were processed

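Per the study's methods and the submitters' processing notes, the authors removed adaptors and low-quality reads, aligned paired-end reads to mm10 with TopHat2 2.0.9, assigned reads to genes with HTSeq and deposited the levels as RPKM values, 1 file per library. The annotation release and gene lengths are not given in the sources used here. Of the 39695 entries, 517 had no Ensembl identifier and 37692 (95.0%) matched GENCODE M21, which supplied coordinates and transcripts. Sequences before gene starts came from RefSeq. The coding ends of the *Tuba1* genes are not reported here.

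From the deposited RPKM values, log2 ratios were computed with a pseudocount of 1 and no rescaling, for genes with a mean of at least 1 RPKM, so that ratios of low genes are understated. No test was made, with 1 library per genotype. Library sizes were found as the total that turned RPKM into whole reads at annotated lengths of single-transcript genes, 648 of 1461 giving the same total within 30 reads, and reads from the nearest whole multiple. Recovered reads made up 98.7% of the control and 98.4% of the Bcas2F/-;Vasa-Cre total. The multiples for *Tuba1a* and *Tuba4a* are not sure. The intervals of these genes, and the shares of all members in reads and per full length, rest on them. Recovery was checked on simulated libraries made at the annotated lengths. That check cannot bear on genes whose length behind the RPKM differed from the annotation, as for *Tuba1a* and *Tuba4a*.

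The members and gene lists were chosen with earlier results of these data known. Genes named are the 6 members, *Bcas2*, *Tuba8*, *Tubal3*, *Tubb4b* and the range of other beta-tubulins, in each list those past 1.5-fold and at most 4 more of the highest, and genes with a mean of at least 50 RPKM that were more than 1.5-fold lower. *Ttl*, *Atat1*, *Tbce*, *Tbcb*, *Tubb3*, *Tubb5*, *Gm14150*, *Stk16*, *Rhox5*, *Prm1*, *Prm2*, *Acrv1*, *Nanos2*, *Id4* and *Sohlh2* were named beyond this rule after their values were seen. Alternatives were pseudocounts of 0.1 and 0.01, other scalings, filters and folds, summed copies, other denominators and, added after seeing the data, reads per full transcript length. Python 3.11.15, numpy 2.4.6, pandas 2.3.3, scipy 1.17.1 and Biopython 1.88 were used.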

Additional observations from a re-analysis of the deposited data

How the results depend on the processing

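No paired analysis was possible because each genotype had 1 library. For the same reason no library could be left out. The log2 ratios of all 6 members kept their direction and their side of 1.5-fold with pseudocounts of 0.1 and 0.01, with the median log2 ratio set to 0 and with RPKM rescaled to a sum of 1000000, *Tuba4a* lying between -0.72 and -0.59. Adding the copies together moved *Tuba3b* to -0.80 and kept it lower. Counts over all genes depended on the settings, beside 251 lower and 233 higher. They were 457 and 454 with a pseudocount of 0.1, 485 and 491 with 0.01, 468 and 511 without a filter, 104 and 46 with a mean of at least 5 RPKM and 56 and 63 at a fold of 2, and 356 and 434 after rescaling. The change in share of *Tuba1a*, 4.85 points in RPKM, was 6.34 points in reads and 6.67 points per full transcript length. That of *Tuba1b*, 5.19 points, was 3.64 and 3.95 points. That of *Tuba4a*, -0.147 points, was -0.055 points per full length. The values in reads and per full length rest on the multiple taken for *Tuba1a*, and those of *Tuba4a* also on its own multiple. The change in summed alpha-tubulin, -12.1% as deposited, was -10.4% after rescaling. Of 100 alternative values, 58 stayed within counting error or 1.5 times the main count, 42 moved beyond it and 0 reversed. The depth leaves *Tuba4a*, *Tuba8* and *Tubal3* imprecise, and the spread between mice is unknown.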
